A study of Homo sapiens with 9 samples.

Results

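The claudins and occludin are the membrane proteins that form the strands of the tight junction, and 9 of their genes (CLDN1, CLDN3, CLDN4, CLDN7, CLDN8, CLDN12, CLDN17, CLDN23 and OCLN) were followed here by symbol among the 24672 genes of the deposited tables. RNA was sequenced from EPC2, a human esophageal epithelial line that all groups share and that was immortalised with telomerase reverse transcriptase. The silenced ALI cultures carried SPINK7 gene silencing (3 libraries) and the control ALI cultures carried a non-silencing control (3 libraries); the product of SPINK7 inhibits serine proteases and is made by squamous epithelia. Both were differentiated at the air-liquid interface (ALI): cells reached confluence on permeable supports under 0.09 mM calcium, received 1.8 mM calcium from day 2, were opened to air on day 7 and, by the labels, were collected for RNA on day 14. The deposited tables' own names give day 7 for these cultures, so the harvest day is not settled. The monolayer cultures (3 libraries) also carried the non-silencing control and were kept undifferentiated, and the labels give no harvest day for them. Whether the silenced line is 1 clone or a pool, and which construct it carries, is not given in the labels, and they describe no other silenced line, so effects of SPINK7 loss and of the construct cannot be told apart. Separate cultures behind the libraries of a group are not stated in the labels; p-values therefore speak only of the spread between libraries, and that spread may be technical.

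Claudins are tetraspan proteins whose extracellular loops pair between neighbouring cells and decide which ions and small solutes pass between them. Some seal the paracellular space and others form ion-selective pores, so the mix of claudins in a tissue matters as well as their total. Occludin, a MARVEL-domain protein, joins the same strands and takes part in their organisation, and the strands are tied to actin through scaffold proteins such as ZO-1. In stratified squamous epithelia, tight junctions are best known in the upper living layers, where they add to the barrier made by the cornified and mucosal surface cells.

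The libraries held between 7641960 and 14009746 counts. SPINK7 stood at 20.9, 38.6 and 32.7 CPM (counts scaled to the normalised library size) in the silenced ALI cultures and at 229, 261 and 225 CPM in the control ALI cultures, so the labels of the arms hold for the targeted gene. All 5 basal squamous markers were detected. Of the simple and glandular epithelial markers, MUC2, TFF3, CDX2 and VIL1 were at 0 counts in every library, while the keratin KRT19 averaged 1139 CPM in the silenced ALI cultures, 441 CPM in the control ALI cultures and 2730 CPM in the monolayers. Of the leukocyte markers PTPRC was at 0 counts throughout, while CD68, a lysosomal protein abundant in macrophages, averaged 74.9 CPM in the silenced ALI cultures, 58.4 CPM in the control ALI cultures and 23.8 CPM in the monolayers. On the second principal component of log2 CPM, which held 14% of the variance, the ALI libraries numbered 2 lay apart from the other ALI libraries in both arms, at -25.5 (silenced) and -78.5 (control) against values of 14.3 to 55.03. Results that rest on these libraries are given with and without them. Monolayer libraries 2 and 3 were more alike than any other pair of a group, with a chi-square per degree of freedom of 1.86 against 15.9 or more for the other pairs. They still differed by more than counting noise and were counted as separate libraries.

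Differentiation and silencing touched these genes very differently. Between the control ALI cultures and the monolayers, CLDN1, CLDN4, CLDN7, CLDN17 and OCLN rose, by between 4.69 and 11.54 on the log2 scale, while CLDN12 and CLDN23 did not pass the test. Between the silenced and the control ALI cultures no claudin nor occludin passed the test. CLDN1 and OCLN had log2 differences of -0.08 and -0.06, while CLDN4 and CLDN7 lay higher and CLDN17 lower in the silenced cultures without passing. CLDN3 and CLDN8 had too few counts to be tested.

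**Figure D1:**
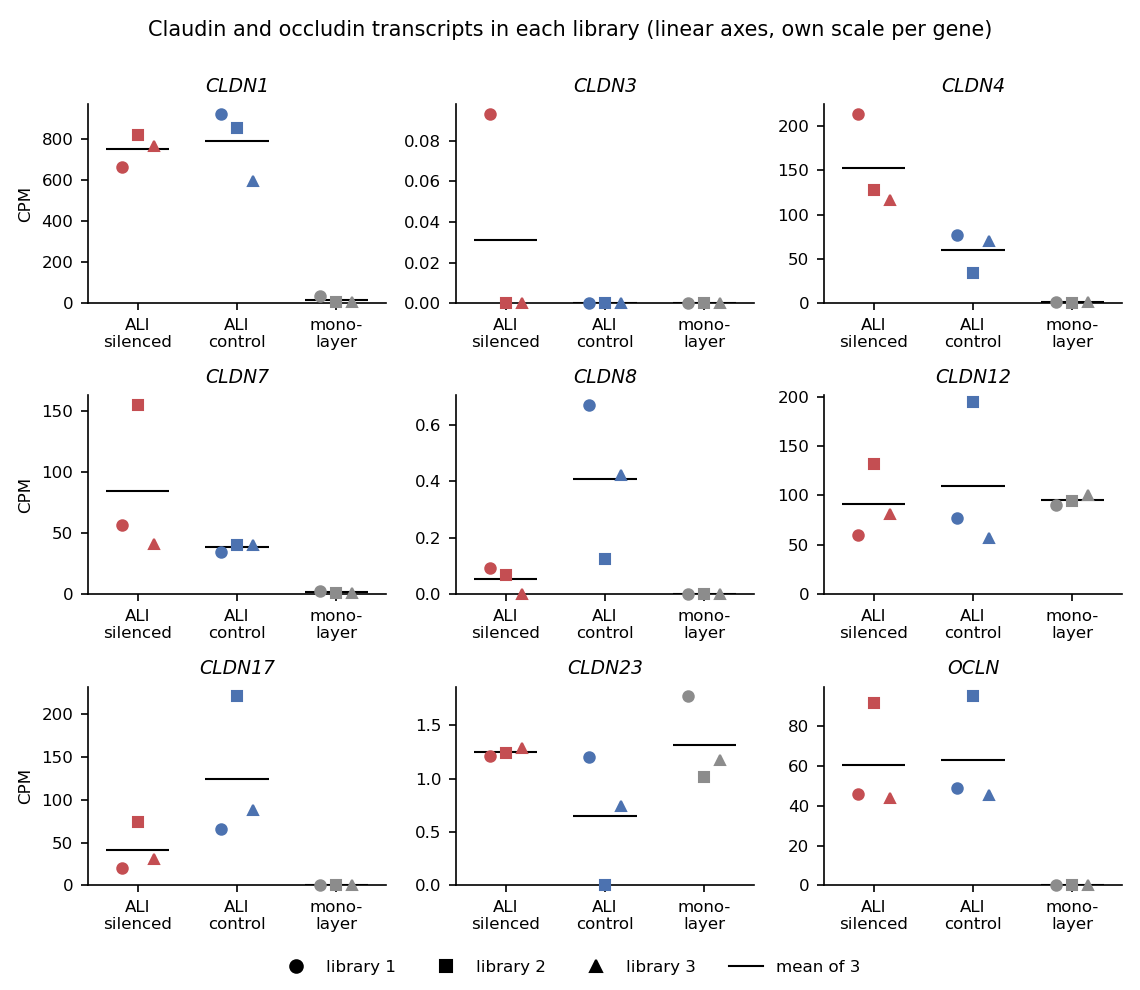
Level of each gene in CPM in every library, on a linear axis with its own scale for each gene; colours mark the silenced ALI, control ALI and monolayer cultures, symbols mark the library number and the line is the mean of 3 libraries. CLDN1, CLDN4, CLDN7, CLDN17 and OCLN sit near 0 in the monolayers and far above it in both ALI groups, the CLDN12 groups overlap, and library 2 of both arms is the highest for CLDN12, CLDN17 and OCLN.

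The promoters of 4 of the genes show how differently these genes begin, and are printed because the genes behaved differently: CLDN4, CLDN7 and CLDN17 rose with differentiation, and CLDN12 did not pass the test. Each sequence runs from 250 bases before to 50 bases after the RefSeq start, 5′ to 3′ in the direction of the gene (GRCh38.p14), with motif matches in capitals. CLDN4 lies at chr7:73830746-73831045 on the plus strand, CLDN17 at chr21:30166756-30167055 on the minus strand, CLDN7 at chr17:7262429-7262728 on the minus strand (the downstream one of 2 listed starts) and CLDN12 at chr7:90403211-90403510 on the plus strand.
CLDN4: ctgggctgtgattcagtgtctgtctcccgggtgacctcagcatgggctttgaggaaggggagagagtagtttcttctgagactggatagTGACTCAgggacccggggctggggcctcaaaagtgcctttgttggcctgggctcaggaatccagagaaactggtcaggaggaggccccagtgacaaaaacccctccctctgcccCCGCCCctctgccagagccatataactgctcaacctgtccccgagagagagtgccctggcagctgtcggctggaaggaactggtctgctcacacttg
CLDN17: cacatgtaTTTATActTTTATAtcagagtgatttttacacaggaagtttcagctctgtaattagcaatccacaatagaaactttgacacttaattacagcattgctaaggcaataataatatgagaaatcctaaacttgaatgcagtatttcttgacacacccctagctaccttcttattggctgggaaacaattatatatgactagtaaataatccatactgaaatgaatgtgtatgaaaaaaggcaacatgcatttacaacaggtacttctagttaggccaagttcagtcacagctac
CLDN7: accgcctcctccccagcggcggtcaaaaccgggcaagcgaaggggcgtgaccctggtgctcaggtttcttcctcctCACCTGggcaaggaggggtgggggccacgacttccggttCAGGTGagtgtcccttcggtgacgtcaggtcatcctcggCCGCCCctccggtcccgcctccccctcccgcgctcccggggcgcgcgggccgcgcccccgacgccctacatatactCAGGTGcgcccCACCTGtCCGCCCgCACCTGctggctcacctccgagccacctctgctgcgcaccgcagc
CLDN12: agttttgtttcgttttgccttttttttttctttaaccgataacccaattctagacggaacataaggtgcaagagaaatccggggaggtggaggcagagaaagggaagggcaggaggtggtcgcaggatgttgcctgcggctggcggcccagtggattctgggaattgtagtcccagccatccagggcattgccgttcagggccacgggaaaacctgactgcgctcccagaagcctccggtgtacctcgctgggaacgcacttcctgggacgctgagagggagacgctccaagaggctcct

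The motifs searched on both strands were AACNNGTT (the grainyhead-like factors), CACCTG (an E-box read by SNAI and ZEB repressors), TGAGTCA (AP-1), GGGCGG (the GC box) and TATAAA (the TATA box), and no matches overlapped in the sequences printed. CLDN4 held 1 AP-1 match, which 4.95% of all 35116 promoters of this length hold, and 1 GC box (45% of promoters). The CLDN7 start printed held 5 E-box matches, where 20.6% of promoters hold any, and 2 GC boxes. The other listed CLDN7 start held none of the 5 motifs. CLDN1 and OCLN, which also rose, are not printed. CLDN1 held 2 GC boxes, and the 2 listed OCLN starts held 1 E-box match with 1 GC box, and 2 E-box matches. CLDN17 held no E-box, AP-1 or GC box match and had 2 TATAAA matches on the opposite strand, at -242 and -234 from the start (11.5% of promoters hold one). CLDN12 held none of the 5 motifs, and none of the 7 genes whose promoters were searched held AACNNGTT (3.52% of promoters do). The promoters of CLDN8 and CLDN23 were not searched. GC content was 33.7% for CLDN17, 56.0% for CLDN12, 59.0% for CLDN4 and 71.7% for CLDN7 (60.0% at its other start), against a median of 58.7% over all promoters. A match is a string of letters and not a site shown to be bound.

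CLDN1, the claudin whose loss in mice lets water escape through the skin, had the highest mean RPKM (reads per transcript length and library total) of the set in both ALI groups, although in the control ALI cultures its libraries overlapped those of CLDN17. It stood at 663, 816 and 764 CPM in the silenced ALI cultures, at 921, 850 and 592 CPM in the control ALI cultures, and at 32.8, 6.07 and 6.28 CPM in the monolayers. All 6 ALI libraries lay far above the monolayers, the 2 ALI arms overlapped, and monolayer library 1 was the highest of its group. Compared with the monolayers, CLDN1 (chromosome 3, 190023490 to 190040235, minus strand, hg19) rose by 5.70 on the log2 scale in the control ALI cultures (SE 0.68, adjusted p = 0.000159). Without monolayer library 1 the difference was 6.99.

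CLDN4 seals against small ions in many epithelia and is, with CLDN3, a receptor for an enterotoxin of Clostridium perfringens. Its level was 214, 127 and 116 CPM in the silenced ALI cultures, 77.3, 34.3 and 69.8 CPM in the control ALI cultures, and 0.708, 0.506 and 0.639 CPM in the monolayers. The 3 groups did not overlap, with the monolayers at or below 10 counts a library. CLDN4 (chromosome 7, 73245193 to 73247015, plus strand, hg19) rose by 6.57 on the log2 scale with differentiation (SE 0.46, adjusted p = 6.14e-06). Its neighbour CLDN3, 60.6 kb away with no gene between them in the tables, gave 1 count in the silenced ALI cultures, 0 in the control ALI cultures and 0 in the monolayers. A floor of 3 counts corresponds to between 0.206 and 0.351 CPM in the silenced ALI libraries. It corresponds to 0.317 to 0.402 CPM in the control ALI libraries and 0.2125 to 0.319 CPM in the monolayers. CLDN3 levels under these ranges could not be measured reliably at this depth.

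CLDN7, which lies along the lateral membrane and binds the adhesion protein EpCAM, was at 57.0, 155 and 41.3 CPM in the silenced ALI cultures, at 34.6, 40.5 and 40.7 CPM in the control ALI cultures, and at 2.41, 1.01 and 0.851 CPM in the monolayers. Silenced library 2 stood far above its group, and the remaining ALI libraries lay close together. CLDN7 (chromosome 17, 7163222 to 7166512, minus strand, hg19) rose by 4.69 on the log2 scale with differentiation (SE 0.58, adjusted p = 0.000205), and by 5.35 without monolayer library 1. Its 3′ end overlaps C17orf81 on the other strand. Whether counting used strand is not given, and reads of the shared bases cannot be assigned.

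CLDN17, a claudin that forms a pore for anions, stood next to CLDN1 in mean RPKM in the control ALI cultures and was almost undetected in the monolayers. Its level was 20.7, 73.9 and 30.3 CPM in the silenced ALI cultures, 65.8, 221 and 87.4 CPM in the control ALI cultures, and 0.0708, 0 and 0 CPM in the monolayers. The monolayers held 1 count in all, and library 2 was the highest of each ALI arm. CLDN17 (chromosome 21, 31538241 to 31538971, minus strand, hg19) passed the differentiation test (adjusted p = 2.64e-05). Its fitted difference of 11.54 depends on the prior count, and the ratio of summed counts of control ALI cultures to monolayers was 4123, with a 95% Poisson interval of 739.5 to 162900 that covers counting error only. The fitted difference was 10.85 without control library 2 and 13.24 without monolayer library 1.

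CLDN8, best known from the kidney collecting duct, lies 47.4 kb from CLDN17 and was near the limit of detection. It gave 1, 1 and 0 counts in the silenced ALI cultures, 5, 1 and 4 counts in the control ALI cultures and 0 in each monolayer. Every control ALI library had at least 1 count and every monolayer had none, and 10 counts against none gave a lower 95% Poisson limit of 3.01 for the ratio of control ALI cultures to monolayers. The gene was removed by the filter on low counts. With no such filter, where 5148 of 17994 genes were called with differentiation, it passed in that comparison by edgeR (adjusted p = 0.0201). In the silenced ALI cultures against the same monolayers it did not pass (adjusted p = 0.306). Nor did its silencing difference (adjusted p = 0.589, ratio of summed counts 0.147, with a counting interval of 0.0157 to 0.690).

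OCLN was at 45.6, 91.5 and 43.7 CPM in the silenced ALI cultures, at 48.9, 94.8 and 45.5 CPM in the control ALI cultures, and at 0.425, 0 and 0.213 CPM in the monolayers. The ALI arms gave almost the same 3 values, with library 2 the highest in both, at 2.05 times (silenced) and 2.01 times (control) the mean of libraries 1 and 3. OCLN (chromosome 5, 68788119 to 68853931, plus strand, hg19) rose by 8.0 on the log2 scale with differentiation (SE 0.67, adjusted p = 1.74e-05), against monolayers with 8 counts in all. The ratio of summed counts was 259.9, with a counting interval of 131.6 to 603.1, and the fitted difference was 9.07 without monolayer library 1. A partial copy of the gene on the same chromosome, LOC647859, held 10 counts over all 9 libraries.

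CLDN12 and CLDN23 did not follow the others. CLDN12, which lacks the scaffold-binding tail of most claudins and takes part in calcium passage in the mouse intestine, was at 60.3, 132 and 80.8 CPM in the silenced ALI cultures, at 77.2, 194 and 57.2 CPM in the control ALI cultures, and at 89.9, 94.8 and 100.4 CPM in the monolayers. The monolayers lay within the span of both ALI arms, where library 2 was again the highest. Its differentiation difference was 0.21 (SE 0.43, 95% interval -0.75 to 1.16, adjusted p = 0.726). Without both ALI libraries numbered 2, where 6551 of 12931 genes were called, it was -0.50 (adjusted p = 0.0411). Over all alternatives that adjusted p ran from 0.0411 to 0.996. CLDN23, on chromosome 8, stayed at or below 1.77 CPM and 25 counts in every library, and at 0 counts in control library 2. Its differentiation difference was -1.03 (SE 0.72, 95% interval -2.63 to 0.57, adjusted p = 0.272). It was -0.47 without control library 2 and -1.74 without control library 1, and over all alternatives its adjusted p ran from 0.0935 to 0.525.

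In the differentiation comparison, then, 5 of the 7 genes tested were higher in the control ALI cultures by edgeR and 0 were lower, where 20.3% of all 12806 genes tested were higher and 20.2% lower. CLDN4, CLDN17 and OCLN held 21, 1 and 8 counts in the monolayers. They passed the filter on low counts only through the ALI libraries, so their calls and the median of the 7 were partly fixed in advance. The members were also chosen with earlier results of these data known, so these counts of genes are a description. The counts were the same at an unadjusted p under 0.05 (25.1% of all genes higher, 24.8% lower) and by DESeq2 (23.5% and 21.8%). The CPM of the groups did not overlap for these 5, where that held for 27.3% of genes tested in the higher and 29.9% in the lower direction. All 5 also passed without both ALI libraries numbered 2, where 6551 of 12931 genes were called in either direction. The median difference of the 7 was 5.70 and that of all genes tested 0.03 on the log2 scale. The summed differentiating squamous markers moved in the same direction, at 5613 to 7145 CPM in the control ALI cultures and 11.5 to 16.8 CPM in the monolayers. Other marker sums also differed without overlap. The simple epithelial list summed to 292 to 792 CPM in the control ALI cultures and 3002 to 3382 CPM in the monolayers, and the fibroblast list, mostly COL1A1, to 12.2 to 49.2 CPM in the control ALI cultures and 50.02 to 185.5 CPM in the monolayers. The leukocyte list, mostly CD68, summed to 52.9 to 69.7 CPM in the control ALI cultures and 15.7 to 29.6 CPM in the monolayers, and the endothelial list, mostly VWF, to 2.77 to 9.41 CPM in the control ALI cultures and 0.11 to 0.42 CPM in the monolayers. The basal squamous list, mostly KRT5 and KRT14, overlapped, at 14866 to 40651 CPM in the control ALI cultures and 24578 to 25691 CPM in the monolayers. Its members went different ways by edgeR. ITGB4 (-2.45, adjusted p = 0.00465) and COL17A1 (-2.15, adjusted p = 0.00117) fell, KRT14 rose (1.32, adjusted p = 0.0325), and KRT5 and TP63 did not pass. The part of these markers in the result was not tested. In bulk RNA, fewer cells expressing a gene and less RNA per cell cannot be told apart.

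**Figure D2:**
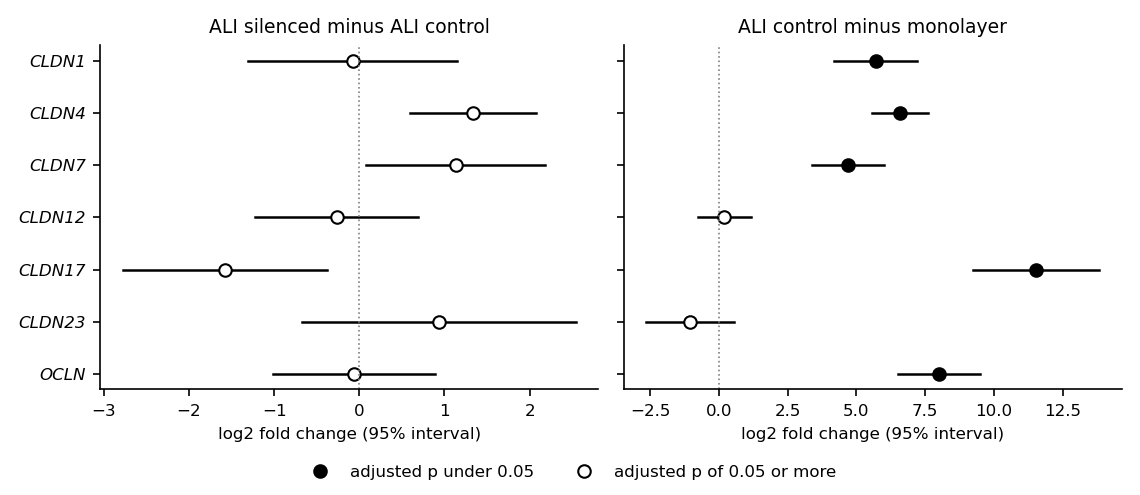
Log2 fold change with its 95% interval for the 7 genes tested, for the silenced minus control ALI cultures (left) and the control ALI cultures minus monolayers (right); filled points have an adjusted p under 0.05. On the left no point is filled and CLDN4, CLDN7 and CLDN17 have intervals that leave out 0, while on the right CLDN1, CLDN4, CLDN7, CLDN17 and OCLN lie between 4.69 and 11.54.

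Levels of different genes can be compared only per length, for which the authors' RPKM values were summed per gene. The summed RPKM of the 9 genes was 384 ± 87.1 in the silenced ALI cultures, 388 ± 83.4 in the control ALI cultures and 29.3 ± 3.61 in the monolayers (SD, n = 3 each). The total thus differed between the ALI arms by less than the spread between libraries. Without the libraries numbered 2 it averaged 334 in the silenced and 343 in the control ALI cultures (n = 2 each), a comparison added after the data were seen. CLDN12 made up 81.6% ± 13.2 of the monolayer total, against 5.71% ± 2.17 in the control ALI cultures, where its own RPKM was 23.3 ± 13.9 against 23.6 ± 1.499 in the monolayers.

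Within the ALI cultures, the shares of the total are a description: they sum to 100% in each library, so a rise of 1 gene lowers the others, and they were not tested. CLDN1 held 49.7% ± 7.58 of the summed RPKM in the silenced cultures and 47.4% ± 10.96 in the control cultures, with overlapping libraries. CLDN17 held 7.16, 18.3 and 10.8% in the silenced cultures, against 19.955, 46.0 and 31.7% in the control cultures. CLDN4 held 29.6, 12.6 and 16.6% in the silenced cultures, against 9.40, 2.87 and 10.1% in the control cultures. The highest CLDN17 share of a silenced library was thus close to the lowest control share, and the CPM of CLDN17 overlapped between the arms. CLDN7 shares were 8.53, 16.8 and 6.81% in the silenced cultures and 4.76, 3.07 and 6.53% in the control cultures, with the lowest silenced and the highest control share close together. Without the libraries numbered 2 the mean shares were 53.2% (silenced) and 52.3% (control) for CLDN1, 9.00% (silenced) and 25.8% (control) for CLDN17, 23.1% (silenced) and 9.77% (control) for CLDN4, and 7.67% (silenced) and 5.64% (control) for CLDN7. OCLN kept to 2.11% ± 0.459 in the silenced and 1.98% ± 0.282 in the control cultures.

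In order of mean RPKM, the silenced ALI cultures had CLDN1 first (187 ± 22.3), then CLDN4 (71.98 ± 24.3), CLDN17 (49.6 ± 34.4), CLDN7 (44.3 ± 32.4), CLDN12 (21.8 ± 9.19), OCLN (8.37 ± 3.83) and CLDN23 (0.551 ± 0.0204). The neighbours from CLDN4 to CLDN12 overlapped in that order. In the control ALI cultures CLDN1 (181 ± 39.2) and CLDN17 (131 ± 77.9) overlapped at the top. They were followed by CLDN4 (26.8 ± 11.5), CLDN12 (23.3 ± 13.9) and CLDN7 (17.6 ± 2.88), which overlapped one another, and by OCLN (7.82 ± 2.73). Libraries numbered 2 carried much of these means. Without them the mean was 25.6 for CLDN7 and 30.0 for CLDN17 in the silenced cultures, and 86.8 for CLDN17 and 15.4 for CLDN12 in the control cultures (n = 2 each). CLDN7 then stood before CLDN12 in the control cultures, where CLDN4, CLDN7 and CLDN12 no longer overlapped. The gap between CLDN7 (17.74 or more) and CLDN12 (17.66 or less) was narrow there. In the silenced cultures CLDN4 no longer overlapped CLDN17, and CLDN7 no longer overlapped CLDN12. CLDN17 no longer overlapped CLDN1 in the control cultures. In the monolayers CLDN12 led, CLDN1 followed at 3.90 ± 3.96, and every other member was under 1 RPKM on average. The RPKM of CLDN7 and OCLN rest on how the authors divided reads among transcript rows. That division was uneven: 1 of the 2 CLDN7 rows had 0 counts in control library 2, and the first of the 3 OCLN rows had 0 in silenced library 3.

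**Figure D3:**
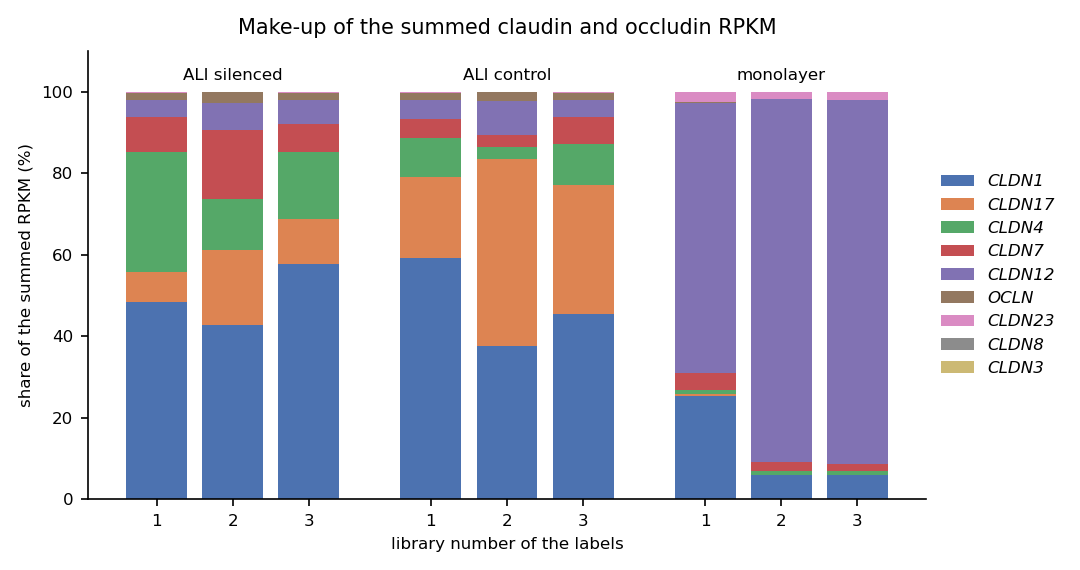
Share of the summed RPKM of the 9 genes held by each gene in every library, in percent, with silenced ALI, control ALI and monolayer libraries from left to right. CLDN12 fills 66.3% or more of each monolayer bar, CLDN1 fills 37.5% or more of each ALI bar, and CLDN17 holds 7.16 to 18.3% of the silenced and 19.955 to 46.0% of the control ALI bars.

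Silencing was compared within the ALI cultures. Of the 7 genes tested, 0 passed higher and 0 passed lower by edgeR, where 0.226% of all genes tested were higher and 0.703% lower. At an unadjusted p under 0.05 there were 2 higher (CLDN4 and CLDN7) and 1 lower (CLDN17), where 4.09% of all genes were higher and 5.07% lower. DESeq2 called 1 higher, CLDN4, where it called 1.09% of all genes higher and 2.15% lower. Limma on log2(RPKM + 1) called 0, where it called 0.406% of all genes higher and 0.945% lower. The CPM of the arms did not overlap for 3 genes, CLDN4, CLDN7 and CLDN23, all higher in the silenced cultures, where 5.76% of genes tested did so and 6.34% did so in the lower direction. CLDN23 rested on 42 counts in the silenced and 16 in the control cultures. The CLDN7 gap was narrow: as log2 of CPM over the control ALI mean, silenced library 3 stood at 0.099 and control library 3 at 0.077.

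CLDN4 was higher by 1.33 on the log2 scale in the silenced cultures (SE 0.33, 95% interval 0.60 to 2.07, adjusted p = 0.114 by edgeR over all genes). It averaged 152 ± 53.6 CPM in the silenced and 60.5 ± 23.0 CPM in the control cultures (SD, n = 3 each), and all 3 silenced libraries lay above all 3 controls. Without both ALI libraries numbered 2, where 708 of 12931 genes were called, it passed (1.17, adjusted p = 0.0158). Over all alternatives its difference stayed between 1.01 and 1.55 and its adjusted p between 0.0158 and 0.414.

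CLDN17 was lower by a log2 difference of -1.58 in the silenced cultures (SE 0.54, 95% interval -2.78 to -0.38, adjusted p = 0.294). It averaged 41.7 ± 28.3 CPM in the silenced and 125 ± 83.9 CPM in the control cultures (SD, n = 3 each), and silenced library 2 lay above control library 1. Silenced libraries 1 and 3 lay below all 3 controls, and library 2 stood at 2.90 times (silenced) and 2.88 times (control) the mean of libraries 1 and 3 of its arm. Without both libraries numbered 2, where 708 of 12931 genes were called, the difference was -1.59 and passed (adjusted p = 0.00247). It was -0.87 without control library 2 alone and -2.30 without silenced library 2 alone. Over all alternatives its adjusted p ran from 0.00247 to 0.782.

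Set against each other, CLDN4 over CLDN17 in RPKM was 4.14, 0.690 and 1.53 in the silenced cultures, against 0.471, 0.0623 and 0.32 in the control cultures. Every silenced library lay above every control library. This ratio was chosen after the values were seen and carries no test.

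CLDN7 had a difference of 1.13 (SE 0.47, 95% interval 0.08 to 2.19, adjusted p = 0.480). It rested on silenced library 2, which stood at 3.16 times the mean of silenced libraries 1 and 3, where control library 2 stood at 1.08 times. Without that library the difference was 0.33 (adjusted p = 0.657), without both libraries numbered 2 it was 0.39 (adjusted p = 0.587), and over all alternatives the adjusted p ran from 0.336 to 0.706. CLDN1 (-0.08, 95% interval -1.30 to 1.15), OCLN (-0.06, -1.02 to 0.89), CLDN12 (-0.27, -1.23 to 0.69) and CLDN23 (0.93, -0.67 to 2.54) had intervals on both sides of 0. Without both libraries numbered 2 the values were -0.09 for CLDN1, -0.08 for OCLN, 0.07 for CLDN12 and 0.38 for CLDN23. A p that misses the threshold does not show that these levels were alike.

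Some marker sums differed between the ALI arms without overlap, and others overlapped. The differentiating squamous list (7 of 7 genes detected) summed to 2571 to 4214 CPM in the silenced and 5613 to 7145 CPM in the control cultures. In that list only DSG1 (-2.81, adjusted p = 0.0124) and KRT4 (-1.98, adjusted p = 0.0138) passed by edgeR. IVL, SPRR1A, SPRR3 and KRT13 were lower without passing, and TGM1 was higher (0.28, adjusted p = 0.813). The simple epithelial list (9 of 10 genes in the tables, of which 4 were at 0 throughout) summed to 1123 to 1891 CPM in the silenced and 292 to 792 CPM in the control cultures. Its keratins KRT8 (1.47, adjusted p = 0.122), KRT18 (0.51, adjusted p = 0.733) and KRT19 (1.37, adjusted p = 0.167) were higher without passing by edgeR. The endothelial list summed to 1.40 to 2.34 CPM in the silenced and 2.77 to 9.41 CPM in the control cultures. Its gene VWF was lower without passing by edgeR (-1.88, adjusted p = 0.233). The leukocyte, fibroblast and basal squamous lists overlapped. In the silenced cultures these summed to 66.5 to 87.2 CPM (leukocyte), 20.8 to 45.6 CPM (fibroblast) and 23115 to 48557 CPM (basal squamous), and in the control cultures to 52.9 to 69.7, 12.2 to 49.2 and 14866 to 40651 CPM in the same order of lists. The part of these markers in the CLDN4, CLDN7 and CLDN17 differences was not tested.

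**Figure D4:**
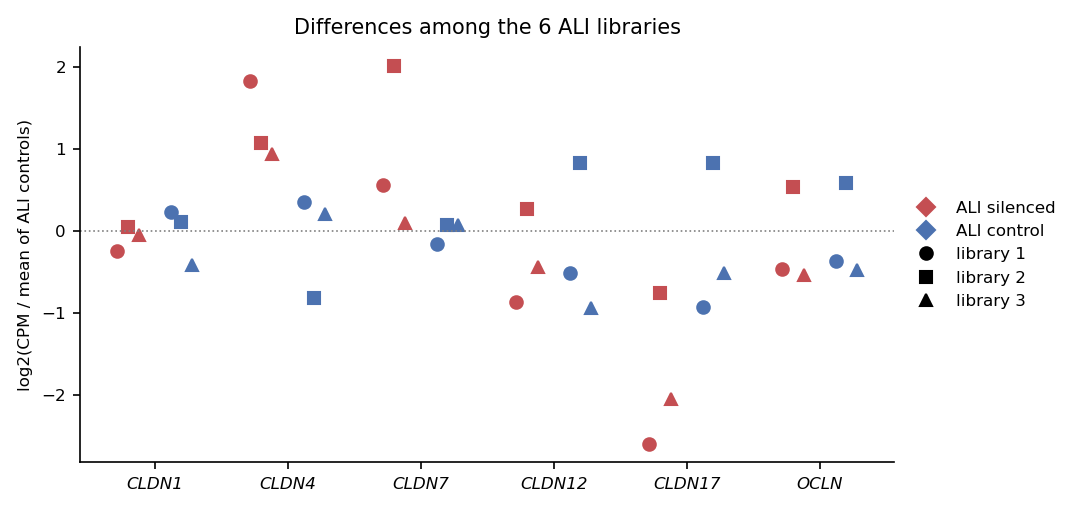
Log2 of the CPM of each ALI library over the mean CPM of the 3 control ALI libraries, for the 6 claudin and occludin genes above 20 CPM at the ALI; colours mark the silenced and control arms and symbols mark the library number. CLDN4 is higher in every silenced library (0.94 to 1.82), the CLDN7 excess is silenced library 2 (2.01), CLDN17 in silenced libraries 1 and 3 lies at -2.59 and -2.04, and library 2 is the highest of its arm for CLDN12, CLDN17 and OCLN.

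The silenced ALI cultures were also compared with the monolayers. That comparison shares its monolayers with the differentiation comparison and its silenced libraries with the silencing comparison, so its values are not independent of either. CLDN1 (5.62), CLDN4 (7.90), CLDN7 (5.83), CLDN17 (9.96) and OCLN (7.93) rose on the log2 scale, 5 of 7 genes tested, where 15.8% of all genes were higher and 15.9% lower. The CPM of the groups did not overlap for these 5, where that held for 28% of genes in the higher and 27.7% in the lower direction. Their adjusted p-values lay between 2.95e-06 and 0.000208. As in the differentiation comparison, CLDN4, CLDN17 and OCLN passed the filter on low counts only through ALI libraries. Calls of these genes were thus partly fixed in advance. CLDN12 (-0.06, 95% interval -1.02 to 0.89) and CLDN23 (-0.10, 95% interval -1.55 to 1.36) did not pass. Without monolayer library 1 the values were 6.91 for CLDN1, 6.48 for CLDN7, 11.67 for CLDN17 and 9.00 for OCLN. Without silenced library 2 they were 5.03 for CLDN7 and 9.21 for CLDN17.

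Other genes of the tight junction were counted by list in the differentiation comparison, where edgeR called 20.3% of all genes tested higher, 20.2% lower and 40.5% in either direction. Of 16 other claudin genes, 3 were tested (CLDN15, CLDN16 and the claudin-like CLDND1), with 0 called by edgeR, 1 at an unadjusted p under 0.05 (50% of all genes), 1 called by DESeq2 (45.2%) and 1 by limma on log2(RPKM + 1) (41.4%). The remaining 13 had at most 35 counts over all libraries, and 5 of them had 0. CLDN16, which lies 65.4 kb from CLDN1 with no gene between them in the tables, averaged 3.62 CPM in the control ALI cultures and 1.06 CPM in the monolayers (log2 difference 1.68, adjusted p = 0.0846), while CLDN1 next to it changed by 5.70.

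Among 8 tested other membrane proteins of the junction, 3 rose, 1 fell and 4 did not pass, so that 50% were called, against 40.5% of all genes. The polarity protein CRB3 rose by 2.51 (adjusted p = 0.000672), the tetraspanin CD9 by 1.27 (adjusted p = 0.00273) and the adhesion protein CXADR by 1.28 (adjusted p = 0.0233). BVES, a membrane protein of epithelia and muscle, had a difference of -2.58 (adjusted p = 2.40e-05). The CXADR call was lost without control library 1 or 2 (adjusted p = 0.0618 and 0.0548) or monolayer library 2 or 3 (0.0883 and 0.0821), and its adjusted p ran from 0.00421 to 0.0883 over all alternatives. The tricellular protein MARVELD2, a relative of occludin, had a difference of -0.35 (adjusted p = 0.288).

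Of 19 tested scaffold and polarity genes, 6 rose, 2 fell and 11 did not pass, so that 42.1% were called, about the 40.5% of all genes. TJP3 (the scaffold ZO-3) had 0 counts in the monolayers and 342 in the control ALI cultures, with a lower 95% Poisson limit of 123.9 for the ratio. TJP1 (ZO-1) rose by 0.62 (adjusted p = 0.0449), but that call was lost in 14 of 19 alternatives (adjusted p from 0.0102 to 0.151). The actin-linking proteins cingulin (CGN, 3.85, adjusted p = 0.000101) and paracingulin (CGNL1, 5.02, adjusted p = 8.10e-06) rose, as did MPP7 (2.99, adjusted p = 1.21e-05). MPDZ, a multi-PDZ scaffold that binds claudins, fell by 2.65 on the log2 scale (adjusted p = 1.61e-05). MPDZ and TJP1 are named after their values were seen.

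Of 13 tested transcription regulators with reported roles at claudin genes, 9 rose, 2 fell and 2 did not pass, so that 84.6% were called, against 40.5% of all genes. This list, like the others, was chosen with earlier results of these data known, so its share is a description. The epithelial factors ELF3, GRHL1 (7.25, adjusted p = 7.72e-06), OVOL1 (5.42, adjusted p = 8.10e-05) and GRHL3 (3.99, adjusted p = 0.00228) rose furthest. ELF3 had 1 count in the monolayers, and its ratio of summed counts was 2363 (counting interval 423.5 to 93380). The repressors SNAI2 and ZEB1, named after their values were seen, both had differences of -1.90 (adjusted p = 7.27e-05 and 0.0143), and the ZEB1 call was lost without monolayer library 2 (adjusted p = 0.0516, range over alternatives 0.00753 to 0.0516). As with CLDN1 and OCLN, these values moved without monolayer library 1, to 12.40 for ELF3, 8.10 for GRHL1, 7.03 for OVOL1 and 5.72 for GRHL3.

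Of 13 tested proteases, kinases and other regulators at the junction, 3 rose, 2 fell and 8 did not pass, so that 38.5% were called, about the 40.5% of all genes. The serine protease TMPRSS4 had 3 counts in the monolayers and a ratio of summed counts of 512.1 (counting interval 174.8 to 2487, adjusted p = 2.25e-05). EPCAM, which binds CLDN7, rose by 2.10 (adjusted p = 0.0129), and the matrix protease MMP14 fell by 2.27 on the log2 scale (adjusted p = 0.000149). Without monolayer library 1 the difference was 11.81 for TMPRSS4 and 3.33 for EPCAM.

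With silencing, 0 genes of these 5 lists passed by edgeR, where 0.929% of all genes did. At an unadjusted p under 0.05, which 9.16% of all genes met, there were 0 other claudins, 1 membrane protein (MARVELD2, 0.75), 2 scaffolds (CGNL1, 0.77, and MPP7, -0.86), 0 transcription regulators and 1 other regulator (MYLK, the myosin light chain kinase linked to junction opening, 0.99, adjusted p = 0.139). DESeq2, with 3.24% of all genes called, called 1 scaffold and 1 of the proteases, kinases and other regulators, and limma on log2(RPKM + 1), with 1.35% called, called 1 of the proteases, kinases and other regulators. The lists' median differences were -0.29 (other claudins), 0.21 (membrane proteins), 0.10 (scaffolds), -0.06 (transcription regulators) and 0.35 (proteases, kinases and others), against 0.01 over all genes tested.

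The genes most like 2 of the members over the 9 libraries were sought by Pearson's r of log2 CPM among 12799 genes, as a description. For OCLN they were MAP2 (0.994), GRHL1 (0.993) and TMPRSS4 (0.993), and 425 genes lay above 0.95. For CLDN1 they were CEBPA (0.995), OVOL1 (0.994) and PVRL4 (0.993), and 337 genes lay above 0.95. The 9 points fall into ALI and monolayer libraries, so the value mainly repeats the gap between them.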

How the data were processed

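The authors deposited, for each library, a table of transcript rows with read counts and RPKM values at hg19 coordinates. The counts are whole numbers that the authors did not normalize, per the file headers and values, and the RPKM values are the authors' own. Per the submitters' processing notes, build hg19, STAR 2.4.2a, Bowtie and MACS2 were used, with no roles given; the counting tool, and whether it used strand, is not given in the sources used here. The libraries were stranded and from polyA RNA, per the labels' protocols. Groups and numbers follow the labels; the tables' own names number some ALI libraries otherwise.

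Rows of 1 symbol and chromosome were summed to 24672 genes. edgeR 4.0.16 in R 4.3.3 (TMM scaling, filterByExpr, 12806 genes kept, robust quasi-likelihood fit over all 9 libraries) tested each comparison, with Benjamini-Hochberg adjusted p-values over all genes tested and a threshold of 0.05. Standard errors (SE) come from the F statistic. CPM are counts over the TMM-adjusted library size, and RPKM were summed per gene. Intervals on counts, and floors of 3 counts, cover counting error only. The members and lists were chosen with earlier results of these data known. All 9 members, SPINK7 and up to 4 genes per list that passed, those with the largest change, are named. The test was tested on simulated data. Alternatives used DESeq2 1.42.0, limma 3.58.1 on log2 RPKM with a pseudocount of 1 or 0.1, other filters, a replicate block, and libraries left out or summed. Some genes that this rule takes are left out of the text.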

Additional observations from a re-analysis of the deposited data

How the results depend on the processing

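There were 19 alternatives (scaling, test, filter, samples in the fit, replicate block, log2 RPKM, and left-out or summed libraries). The differentiation calls of CLDN1, CLDN4, CLDN7, CLDN17 and OCLN held in every one, with adjusted p-values of at most 0.0032. With no filter on low counts, where 5148 of 17994 genes were called with differentiation, CLDN8 also passed in that comparison, on 10 counts against 0. The number of these genes higher with silencing was 1 (CLDN4) in place of 0 by the DESeq2 Wald test, with the replicate block and without both ALI libraries numbered 2. The number lower with silencing was 1 (CLDN17) with the replicate block and without those libraries, and the number lower with differentiation was 1 (CLDN12) without them. Without those libraries 6551 of 12931 genes tested were called with differentiation, against 5190 of 12806 in the main fit. Other alternatives called fewer, down to 3580 of 12985 without monolayer library 2. With monolayer libraries 2 and 3 summed as 1, 3680 of 13082 genes were called. Between 28 and 708 of all genes tested were called with silencing over the alternatives, against 119, and the 708 came without both ALI libraries numbered 2. The cause of these differences was not tested. With the replicate block CLDN4 differed by 1.36 (adjusted p = 0.0324) and CLDN17 by -1.59 (adjusted p = 0.0164), and 176 genes in all were called. The library numbers are not shown to pair the libraries. Deviations of same-numbered silenced and control libraries correlated at 0.495, 0.577 and -0.006, where differently numbered ones ran from -0.691 to 0.637. Those of same-numbered control and monolayer libraries correlated at -0.156, -0.217 and -0.013, where differently numbered ones ran from -0.11 to 0.184.

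Directions turned only for genes that had not passed, and of these only CLDN12 with differentiation, without both ALI libraries numbered 2, passed in the turned direction. With silencing, CLDN1 turned to 0.0124 with the replicate block, to 0.0659 on log2(RPKM + 1) and 0.0663 on log2(RPKM + 0.1), and lay between -0.24 and 0.0535 with 1 library left out. OCLN turned to 0.0576 and 0.0613 on the RPKM scales with 1 and 0.1 added and lay between -0.51 and 0.36 with 1 library left out. CLDN12 turned to 0.0699 without both libraries numbered 2 and lay between -0.64 and 0.44 with 1 left out. With differentiation, CLDN12 turned to -0.16 and -0.17 on the RPKM scales with 1 and 0.1 added and to -0.50 without both libraries numbered 2, and lay between -0.50 and 0.52 with 1 left out. Between silenced cultures and monolayers, CLDN23 turned to 0.0018 with the replicate block and lay between -0.26 and 0.18 with 1 left out, and CLDN12 lay between -0.45 and 0.17. On the RPKM scales the median of all genes moved to 0.14 (silencing, 0.1 added) and to -0.13 and -0.18 (differentiation, 1 and 0.1 added). Depth limits CLDN3, CLDN8 and CLDN23 in all groups and OCLN and CLDN17 in the monolayers.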
